A study of Mus musculus with 16 samples.

Results

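The neurotrophins Bdnf and Ntf3, the related growth factor Gdnf, and the receptors Ngfr, Ntrk2, Ntrk3, Gfra1 and Gfra2 were followed in stromal cells of mouse bone marrow. These 8 genes were taken by symbol out of the 52459 rows of the raw count table. SS mice were homozygous Townes sickle mice, with human alpha globin in place of the mouse alpha genes (hα/hα) and human sickle beta globin on both beta alleles (βS/βS, the construct also carrying human Aγ-globin). SA mice were heterozygous mice of the same Townes strain, also hα/hα, with 1 sickle and 1 normal human beta globin allele (βA/βS). Both genotypes thus had human in place of mouse globins, and neither was a wild-type mouse. Neither age nor sex was given in the labels. The sort kept live single cells that carried CD51 and CD140a and lacked the leukocyte marker CD45, the erythroid marker Ter119 and the endothelial marker CD31. Each genotype had 4 numbered mice with 1 library per mouse, run on 2 lanes.

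Neurotrophins are secreted survival and growth factors of neurons. Bdnf binds the receptor tyrosine kinase TrkB (Ntrk2), neurotrophin-3 (Ntf3) binds TrkC (Ntrk3), and all neurotrophins bind p75 (Ngfr), a receptor of the TNF receptor superfamily that is also called CD271 and is used to isolate human marrow stromal cells. Gdnf acts through a lipid-anchored co-receptor, GFRα1 (Gfra1), together with the kinase Ret, and GFRα2 (Gfra2) prefers the related ligand neurturin. Bone marrow is innervated by sympathetic and sensory fibres with accompanying Schwann cells, so transcripts of these genes in a marrow sort can come from stromal cells or from cells around nerves and vessels.

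Across the 8 libraries the receptors were counted in most libraries, while the ligands were at or near 0 in most. All 4 SS libraries had more Ntrk2 and more Ntrk3 transcript than any SA library. Ngfr and Gfra1 had higher means in SS that rested largely on 1 library each, and Gfra2 varied more within each genotype than between them. No member passed the test between genotypes over all genes, so these are descriptions of 8 mice.

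5 of the 8 members passed the filter on low counts and were tested (Ngfr, Ntrk2, Ntrk3, Gfra1 and Gfra2), while Bdnf, Ntf3 and Gdnf did not pass it. By edgeR's quasi-likelihood test 0 of the 5 were called at an adjusted p under 0.05, where 0% of the 17316 genes tested were called (smallest adjusted p = 0.148). DESeq2 called 315 of 19472 genes, or 1.62% (0.914% higher in SS and 0.704% lower), and limma-voom called 0, and neither called a member. At an unadjusted p under 0.05, 4 of the 5 tested members were higher in SS and 0 were lower, where 6.98% of all genes tested were at that level, 4.03% higher and 2.96% lower. Ngfr and Ntrk2 had log2 fold changes above 2, as 2.54% of genes did. Ngfr reached the filter's level in 3 SS libraries and 1 SA library, so it was tested largely because of its SS values, and the members were chosen with earlier results known.

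Total counts ran from 24797857 to 31117007 per library. Some libraries stood apart. Pan-leukocyte transcripts (15 genes, Ptprc and Cd52 among them) summed to 398 to 2832 CPM (counts scaled by TMM-adjusted library totals) in SS and 895 to 4828 CPM in SA, with SS replicate 1 and SA replicates 1 and 2 the highest. SS replicate 2 had 57347 counts of Xist, a transcript of the inactive X chromosome, where the other 7 libraries had 57 to 420. The Y-linked genes Ddx3y, Kdm5d, Uty and Eif2s3y had 7 to 17 counts there and 717 to 4436 in the other libraries. By these transcripts SS replicate 2 came from a female mouse and the others from males. The labels of SS replicate 4 conflict for 1 of its lanes, which is titled SS but otherwise labelled as SA, and the title was followed. Title numbers that look like dates separate all SA libraries from all SS libraries, so that what they mark cannot be told apart from genotype. SS replicate 2 also differs in this number from SS replicates 1, 3 and 4. Stromal transcripts were present in every library. A list of 10 stromal genes, which includes the sort markers Pdgfra (CD140a) and Itgav (CD51), was summed. It came to 22329 to 32705 CPM in SS and 15345.5 to 33384 CPM in SA, and the genotypes overlapped. The sum does not give the level of either sort marker.

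Promoter sequence from RefSeq (build GRCm38.p6) was on hand for 6 of the 8 members. The windows of Ngfr and Ntrk2, the tested members with the largest fold changes, are shown because their starts differ in make-up. Each line gives 200 bases, ending 50 bases before the RefSeq start, 5′ to 3′ on the gene's strand, with GC boxes (GGGCGG on either strand) in capitals.
Ngfr, chr11:95587749-95587948, minus strand: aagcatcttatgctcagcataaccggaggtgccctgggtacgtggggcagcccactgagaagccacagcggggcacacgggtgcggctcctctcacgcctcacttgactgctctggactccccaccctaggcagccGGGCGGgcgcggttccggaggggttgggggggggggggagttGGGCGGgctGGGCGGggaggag
Ntrk2, chr13:58806319-58806518, plus strand: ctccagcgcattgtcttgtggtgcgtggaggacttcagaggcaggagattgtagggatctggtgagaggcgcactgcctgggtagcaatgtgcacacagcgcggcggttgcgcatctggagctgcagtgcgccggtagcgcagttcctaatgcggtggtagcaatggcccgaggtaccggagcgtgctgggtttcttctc
The Ngfr window held 3 GC boxes and 70.0% G and C. The Ntrk2 window held 0 GC boxes and 61.0% G and C. Of the 32851 RefSeq windows of this length, 24.6% held a GC box, and their median G and C content was 51.5%. A CRE (TGACGTCA), an E-box (CACGTG), a forkhead sequence (TGTTTAC) and a TATA sequence (TATAAA), searched on both strands, had 0 matches in either window, where 0.828%, 4.34%, 2.58% and 9.14% of all windows held them.

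The ligands were at or near the limit of detection. Bdnf (chromosome 2, 109674700 to 109727007 on GRCm38) had 0, 1, 0 and 1 counts in SS replicates 1 to 4 and 0, 0, 3 and 0 counts in SA replicates 1 to 4. No library exceeded a floor of 3 counts, which was 0.0967 to 0.109 CPM in SS and 0.1004 to 0.113 CPM in SA, so no fold change is given. Bdnf shares an exonic stretch with the antisense gene model Gm45346, and no source used here gives the strand setting of the counting, so reads of the pair cannot be told apart.

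Ntf3, which encodes neurotrophin-3, was seen in isolated libraries. Ntf3 (chromosome 6, 126101412 to 126166910) had 0, 0, 0 and 41 counts in SS replicates 1 to 4 and 0, 0, 38 and 1 counts in SA replicates 1 to 4. 1 library of each genotype therefore held nearly all of its reads, with 1.32 CPM for SS replicate 4 and 1.27 CPM for SA replicate 3.

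Gdnf was counted in SS libraries and in no SA library. Gdnf (chromosome 15, 7810846 to 7837575) had 2, 13, 13 and 0 counts in SS replicates 1 to 4 and 0 counts in all 4 SA libraries. SS replicates 2 and 3 were above the floor and SS replicates 1 and 4 were at or under it, so the genotypes overlapped at 0. The SS mean of 0.250 CPM was 2.34-fold the mean SA floor of 0.107 CPM, taken as 3 counts per library. That mean rested almost wholly on SS replicates 2 and 3, so the ratio is no bound on a difference between genotypes. In an edgeR fit without the filter its adjusted p was 0.484, and it got no adjusted p by DESeq2.

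**Figure D1:**
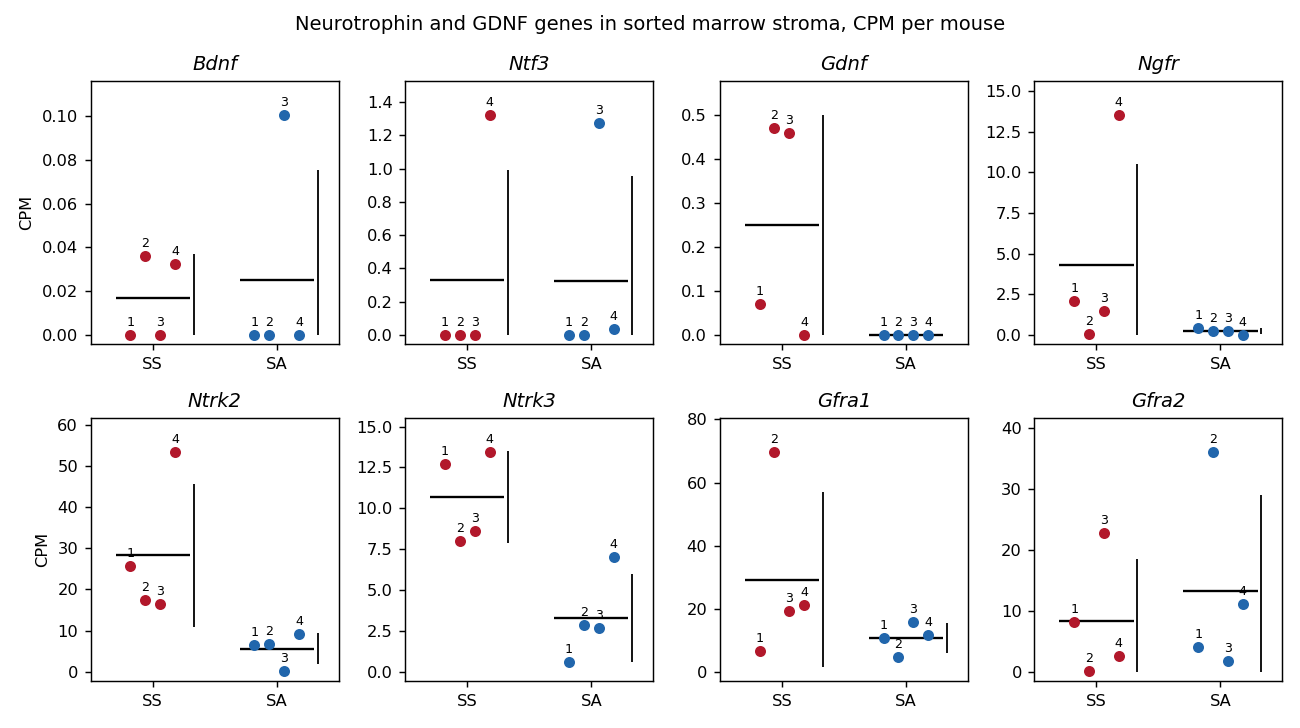
CPM (counts scaled by TMM-adjusted library totals) of the 8 genes in each mouse, SS left and SA right, with the replicate number above each point, the mean as a horizontal line and 1 SD (n = 4, cut at 0) as a vertical line. All 4 SS points lie above all 4 SA points for Ntrk2 and Ntrk3 only, and the vertical scale differs between panels.

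Ntrk2 and Ntrk3, the kinase receptors of Bdnf and neurotrophin-3, were higher in each SS library. Ntrk2 (TrkB, chromosome 13, 58806569 to 59133970) was at 25.6, 17.5, 16.5 and 53.5 CPM in SS replicates 1 to 4 and at 6.43, 6.63, 0.134 and 9.16 CPM in SA replicates 1 to 4. The lowest SS library lay above the highest SA library, SS replicate 4 was the highest of all, and SA replicate 3 had only 4 counts. The mean was 28.3 ± 17.3 CPM in SS and 5.59 ± 3.84 CPM in SA (SD, n = 4 each), a log2 fold change of 2.34 (SE 0.88, 95% interval 0.40 to 4.28, edgeR adjusted p = 0.695, DESeq2 adjusted p = 0.168). It was 1.83 without SS replicate 4, 2.52 without SS replicate 2 and 2.13 with the leukocyte score as a covariate. In bulk sorted cells, fewer cells with a transcript and less transcript per cell cannot be told apart.

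Ntrk3 (TrkC, chromosome 7, 78175959 to 78738012) was the steadiest member within SS. It was at 12.7, 8.002, 8.59 and 13.4 CPM in SS replicates 1 to 4 and at 0.564, 2.88, 2.68 and 7.03 CPM in SA replicates 1 to 4. The genotypes did not overlap, with SA replicate 4 close under SS replicate 2. Its mean was 10.7 ± 2.79 CPM in SS and 3.29 ± 2.71 CPM in SA (SD, n = 4 each), a log2 fold change of 1.70 (SE 0.71, 95% interval 0.13 to 3.27, edgeR adjusted p = 0.695). It was 1.57 without SS replicate 4 and 1.82 without SS replicate 2. Genotypes did not overlap for 3.91% of all genes tested, with SS above for 2.36% and SA above for 1.55%, and 2 of the 5 tested members (Ntrk2 and Ntrk3) were of the first kind.

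Markers of other cells differed between the same libraries. The pan-leukocyte sum was lowest in SS replicate 4, where Ntrk2 and Ntrk3 were highest, and high in SS replicate 1, where Ntrk3 was at 12.7 CPM. Without the 3 leukocyte-rich libraries the log2 fold change of Ntrk3 was 1.04 and that of Ntrk2 was 2.65. All 15 pan-leukocyte genes had fold changes below 0, with 0 called by edgeR or DESeq2. The B cell sum was 398 to 422 CPM in SS and 507 to 1847 CPM in SA, without overlap. DESeq2 called 5 of its 10 genes lower in SS, where it called 0.704% of all genes lower, and edgeR called 0. The log2 fold changes of the 10 B cell genes ran from -4.00 to -0.05 (median -2.86). The sum weights the most abundant of them, and how far it measures B cells was not tested. Over the 8 libraries, the Pearson r of Ntrk2 was -0.29 with the B cell sum, -0.29 with the pan-leukocyte sum and 0.60 with the pericyte and smooth muscle sum. The Pearson r of Ntrk3 was -0.93 with the B cell sum, -0.63 with the pan-leukocyte sum and 0.68 with the pericyte and smooth muscle sum. Other marker sums gave values of similar size, such as -0.64 for Ntrk2 with the osteoblast sum and -0.73 for Ntrk3 with the megakaryocyte and platelet sum. Where a gene and a sum both separate the genotypes without overlap, r partly restates that separation. The sum of 11 pericyte and smooth muscle genes was also without overlap, at 1317 to 6600 CPM in SS and 673 to 860 CPM in SA. DESeq2 called 3 of these 11 higher in SS, where it called 0.914% of all genes higher, and edgeR called 0. The part of B cells and mural cells in the Ntrk2 and Ntrk3 values was not tested. Both genes have many annotated transcripts, 10 for Ntrk2 (7 of them protein-coding) and 20 for Ntrk3 (6 of them protein-coding), including truncated receptors that lack the kinase. Counts per gene symbol do not separate them.

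Ngfr, the p75 receptor, was high in 1 SS library. Ngfr (chromosome 11, 95568818 to 95587735) was at 2.11, 0.0724, 1.45 and 13.5 CPM in SS replicates 1 to 4 and at 0.451, 0.243, 0.234 and 0 CPM in SA replicates 1 to 4. SS replicates 1, 3 and 4 lay above every SA library, whereas SS replicate 2, with 2 counts, lay below 3 of them. Its mean was 4.29 ± 6.21 CPM in SS and 0.232 ± 0.184 CPM in SA (SD, n = 4 each), a log2 fold change of 4.18 (SE 1.58, 95% interval 0.69 to 7.67, edgeR adjusted p = 0.695, DESeq2 adjusted p = 0.0833). SS replicate 4 held 74.8% of the CPM summed over the 8 libraries, and without it the log2 fold change was 2.37.

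SS replicate 4, which also held all SS counts of Ntf3, differed in other markers. Its pericyte and smooth muscle transcripts (Rgs5 and Acta2 among them) summed to 6600 CPM, where the next highest SS library had 1839 CPM. Of the 13 Schwann cell genes, Cdh19, a cadherin of Schwann cell precursors, had 75 counts there against 0 in the other SS libraries and at most 1 in SA. Foxd3, a neural crest factor, had 6 counts there and 0 in all other libraries. Both were named after their values were seen. Sox10, the defining glial factor, had 1 count in SS replicate 4, 0 in the other SS libraries and 0 to 8 in SA. The summed level of the whole Schwann cell list went the other way and was lowest in SS replicate 4, at 55.3 CPM, with 55.3 to 119 CPM in SS and 80.4 to 115 CPM in SA. Its Pearson r with Ngfr over the 8 libraries was -0.78, and that of the pericyte and smooth muscle sum with Ngfr was 0.84. Of the 13 Schwann cell genes 6 passed the filter, with log2 fold changes from -3.03 to 1.96. The Schwann cell sum weights the most abundant of its genes, and how far it measures Schwann cells was not tested. Of 11 neuronal genes 5 were at 0 in every library, Th and Snap25 among them, and the list summed to 0.777 to 2.06 CPM in SS and 0.0368 to 2.98 CPM in SA. Neither their part nor that of mural cells in the Ngfr and Ntf3 values was tested.

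**Figure D2:**
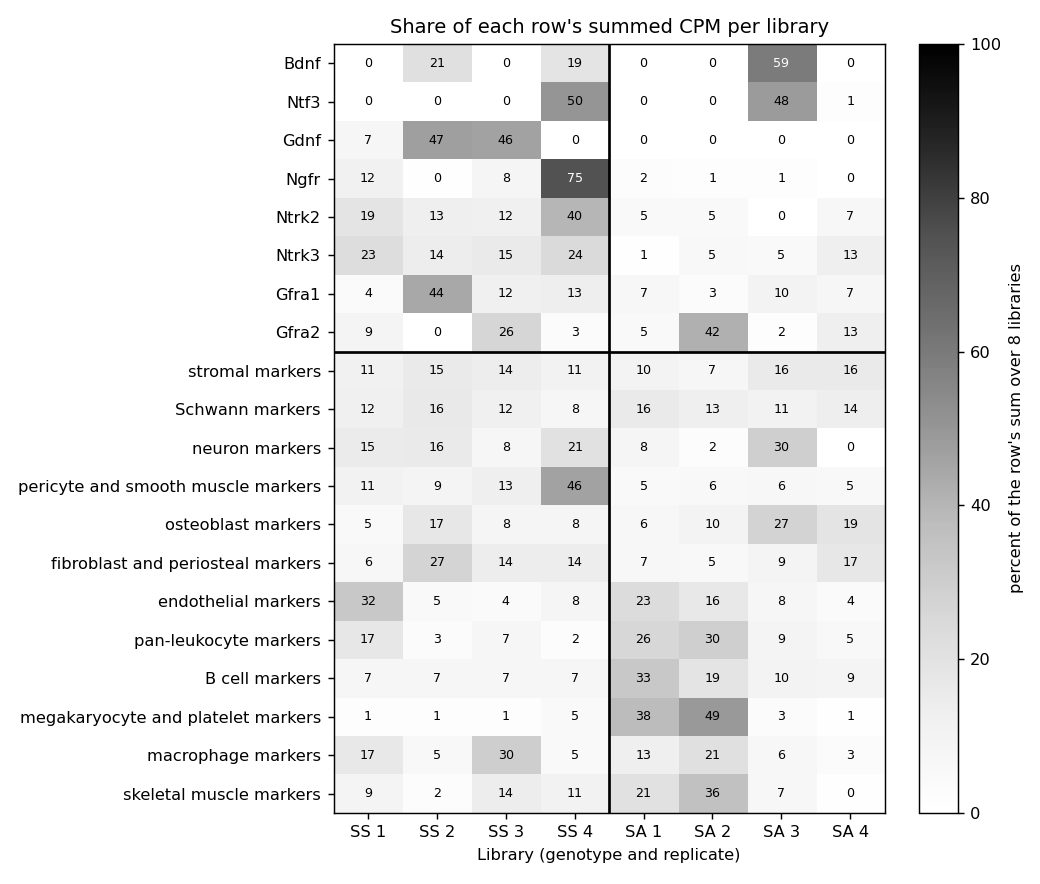
Percent of each row's CPM, summed over the 8 libraries, that fell in each library, for the 8 members (above the line) and 12 marker lists (below it), with SS columns left of SA columns. SS replicate 4 holds 74.8% of Ngfr and 45.8% of the pericyte and smooth muscle sum, and SS replicate 2 holds 43.8% of Gfra1 and 27.0% of the fibroblast and periosteal sum.

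Gfra1 and Gfra2, the GDNF family co-receptors, were highest in different libraries. Gfra1 (chromosome 19, 58235604 to 58455909) was at 6.55, 69.8, 19.3 and 21.2 CPM in SS replicates 1 to 4 and at 10.5, 4.52, 15.8 and 11.7 CPM in SA replicates 1 to 4. 3 SS libraries lay above every SA library and SS replicate 1 lay below 3 of them. Its mean was 29.2 ± 27.8 CPM in SS and 10.6 ± 4.66 CPM in SA (SD, n = 4 each), a log2 fold change of 1.46 (SE 0.66, 95% interval 0.01 to 2.91, edgeR adjusted p = 0.713). Without SS replicate 2 it was 0.57, and with the leukocyte score as a covariate it was -0.04. Gfra1 shares an exonic stretch with the antisense gene model Gm16277, whose reads may not be separable.

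SS replicate 2, where Gfra1 was highest, also had the highest sum of fibroblast and periosteal genes (9 genes, Ly6a and Thy1 among them). It was 1817 CPM there, 425 to 962 CPM in SS replicates 1, 3 and 4, and 354 to 1153 CPM in SA. DESeq2 called 5 of the 9 higher in SS, where it called 0.914% of all genes higher, and edgeR called 0. The 3 leukocyte-rich libraries, SS replicate 1 and SA replicates 1 and 2, held the 3 lowest Gfra1 values, and without them the log2 fold change was 1.41. SS replicate 2 also stood apart in Xist and Y-linked transcripts. The parts of fibroblasts and of sex in the Gfra1 values were not tested.

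Gfra2 (chromosome 14, 70890120 to 70979838) was at 8.10, 0.0724, 22.8 and 2.58 CPM in SS replicates 1 to 4 and at 4.02, 36.1, 1.67 and 11.2 CPM in SA replicates 1 to 4. The genotypes overlapped almost wholly, and the range within each genotype was wide. Its mean was 8.39 ± 10.2 CPM in SS and 13.2 ± 15.7 CPM in SA (SD, n = 4 each), a log2 fold change of -0.66 (SE 1.23, 95% interval -3.37 to 2.05, edgeR adjusted p = 0.941). Without SA replicate 2 the value was 0.58, and without SS replicate 3 it was -1.88. Across the 8 libraries, log2 CPM of Gfra1 and Gfra2 had a Pearson r of -0.82, as a description of libraries that differ in cell content. SS replicate 2 was the highest for Gfra1 and the lowest for Gfra2, and SA replicate 2 was the reverse. No r was computed without these libraries. SS replicate 3 had 19.3 CPM of Gfra1 and 22.8 CPM of Gfra2, so the genes did not move oppositely in every library. SS replicate 2, with 1928 counts of Gfra1, had 2 counts of Gfra2.

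**Figure D3:**
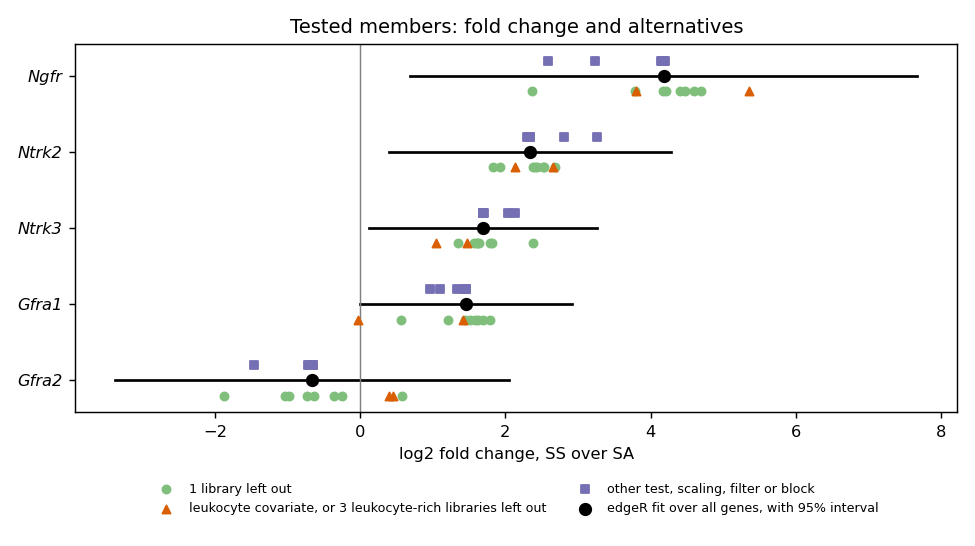
Log2 fold change of SS over SA for the 5 tested members, with the edgeR value and its 95% interval in black and the 17 alternatives as coloured marks. Ngfr, Ntrk2 and Ntrk3 stay above 0 under each alternative, Gfra1 reaches -0.04 with the leukocyte covariate, and Gfra2 lies on both sides of 0.

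Per kilobase of annotated exon the order of the members was led by the co-receptors. In SS libraries the mean level was 5.34 CPM per kb for Gfra1, 2.37 for Gfra2, 1.47 for Ntrk2, 1.24 for Ngfr, 0.354 for Ntrk3, 0.193 for Ntf3, 0.0681 for Gdnf and 0.00275 CPM per kb for Bdnf. In SA libraries the mean level was 3.74 CPM per kb for Gfra2, 1.94 for Gfra1, 0.290 for Ntrk2, 0.191 for Ntf3, 0.109 for Ntrk3, 0.0674 for Ngfr and 0.00404 CPM per kb for Bdnf, with Gdnf at 0. Lengths are unions of all annotated exons (30.2 kb for Ntrk3 and 19.3 kb for Ntrk2), which lowers the level of genes with many long transcripts. Neighbours in the SS order overlapped between libraries in every case. In the SA order they overlapped too, except that Gfra1 lay above Ntrk2 in every library.

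The remaining ligands and receptors of the same families were then examined. Ntf5, neurotrophin-4 and a further ligand of TrkB, had 0 to 11 counts in SS and 0 to 12 counts in SA. Ret, the kinase shared by GDNF family co-receptors, was at 38.0 ± 17.3 CPM in SS and 30.4 ± 18.9 CPM in SA (log2 fold change 0.32, SE 0.57, edgeR adjusted p = 0.936). Nrtn, the preferred ligand of GFRα2, had 0 counts in every library. Sort1, sortilin, a co-receptor of p75 for proneurotrophins, was at 111 ± 20.9 CPM in SS and 97.0 ± 51.4 CPM in SA.

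Of the 8 listed neurotrophin genes outside the members 4 were tested, 3 with a fold change above 0 and 1 below, and of 10 such GDNF family genes 5 were tested, 4 above and 1 below. None was called by edgeR or DESeq2, and the medians were 0.42 and 0.50, against -0.01 over all genes tested. The GDNF family median was 0.15 without SS replicate 2. Sorl1, a sorting receptor of the sortilin family, was at 104 ± 133 CPM in SS and 224 ± 165 CPM in SA, and Sorcs2, of the same family, at 10.3 ± 6.16 CPM in SS and 6.63 ± 3.11 CPM in SA. Sdc3, a syndecan that binds Gdnf, was at 156 ± 76.8 CPM in SS and 84.9 ± 31.8 CPM in SA (log2 fold change 0.88, SE 0.37, edgeR adjusted p = 0.695), and Ncam1, an alternative Gdnf receptor, at 260 ± 142 CPM in SS and 184 ± 68.0 CPM in SA. Without SS replicate 2 the log2 fold change of Sdc3 was 0.48 and that of Ncam1 was 0.079, and with the leukocyte covariate that of Sdc3 was 0.42 and that of Ncam1 was -0.13. Sorl1, with a log2 fold change of -1.11, was at -2.55 without SS replicate 1, -0.72 without SA replicate 2 and 0.39 with the covariate. Sorcs2, at 0.64, was at 0.26 without SS replicate 3, 0.38 without SA replicate 2 and 0.098 with the covariate. Gfra4, the co-receptor for persephin, was at 3.57 ± 2.58 CPM in SS and 0.479 ± 0.843 CPM in SA, with overlap. Its log2 fold change of 2.88 was 5.80 without SA replicate 3 and 5.01 with the replicate block. Counts of Gfra4 were 171, 76, 9 and 161 in SS replicates 1 to 4 and 0, 4, 52 and 1 in SA replicates 1 to 4. It was thus tested largely because of its SS values, and the 5.80 sets SS against SA counts of 0, 4 and 1.

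Genes around these receptors were examined by list. Of 13 listed genes of proneurotrophin processing 11 were tested (6 above 0 and 5 below, median log2 fold change 0.38), and 0 were called. That median was -0.089 without SS replicate 3, 0.10 without SA replicate 2, 0.69 without SA replicate 3, 0.084 with the leukocyte covariate and 0.00 without the 3 leukocyte-rich libraries. Serpini1, neuroserpin, was at 2.74 ± 2.75 CPM in SS and 0.231 ± 0.185 CPM in SA. Its counts were 29, 1, 108 and 189 in SS replicates 1 to 4 and 2, 3, 8 and 13 in SA replicates 1 to 4. Serpini1 was thus tested largely because of its SS values, although SS replicate 2 lay below every SA library. Mmp9, a protease that cleaves proneurotrophins and is abundant in neutrophils, was at 124 ± 93.4 CPM in SS and 263 ± 150 CPM in SA. The log2 fold change of Mmp9 was -1.09, and -1.65 without SS replicate 1 and 0.084 with the covariate.

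Of 15 listed p75 partners 13 were tested (9 above 0 and 4 below, median 0.14) and of 22 adaptors of Trk and Ret 21 (14 above 0 and 7 below, median 0.06), and 0 were called in either list. Maged1, a p75 interactor, was at 340 ± 111 CPM in SS and 237 ± 93.1 CPM in SA, Irak1, a signalling kinase, at 86.1 ± 39.0 CPM in SS and 56.0 ± 6.99 CPM in SA, and Rtn4, the neurite growth inhibitor Nogo, at 140 ± 21.8 CPM in SS and 115 ± 9.42 CPM in SA. The log2 fold change of Irak1 was 0.62, and 0.26 without SS replicate 3. That of Maged1 was 0.52, and 0.31 without SA replicate 2, and that of Rtn4 was 0.28, and 0.17 without SS replicate 2. The adaptors Sh2b1 and Grb2 had log2 fold changes of -0.71 (SE 0.35) and -0.73 (SE 0.36), and Grb10 one of 0.62 (SE 0.33), with edgeR adjusted p-values from 0.734 to 0.747. Without SA replicate 4 that of Sh2b1 was -0.34, and with the leukocyte covariate that of Grb10 was 0.14.

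Of 16 listed response genes of these kinases 12 were tested (7 above 0 and 5 below, median 0.12), and 0 were called. Etv5, an ETS factor induced by Ret signalling in kidney and testis, was at 16.5 ± 5.52 CPM in SS and 7.92 ± 1.03 CPM in SA without overlap (log2 fold change 1.06, SE 0.40, edgeR adjusted p = 0.695, DESeq2 adjusted p = 0.0647). Junb, an immediate early factor, was at 218 ± 65.7 CPM in SS and 162 ± 31.4 CPM in SA, and Spry4, a feedback inhibitor of receptor kinases, at 56.3 ± 22.9 CPM in SS and 32.7 ± 19.7 CPM in SA, both with overlap. The log2 fold change of Junb was 0.42, and 0.21 without SS replicate 3. That of Spry4 was 0.78, and 0.50 without SS replicate 4 and 0.44 without SA replicate 2.

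**Figure D4:**
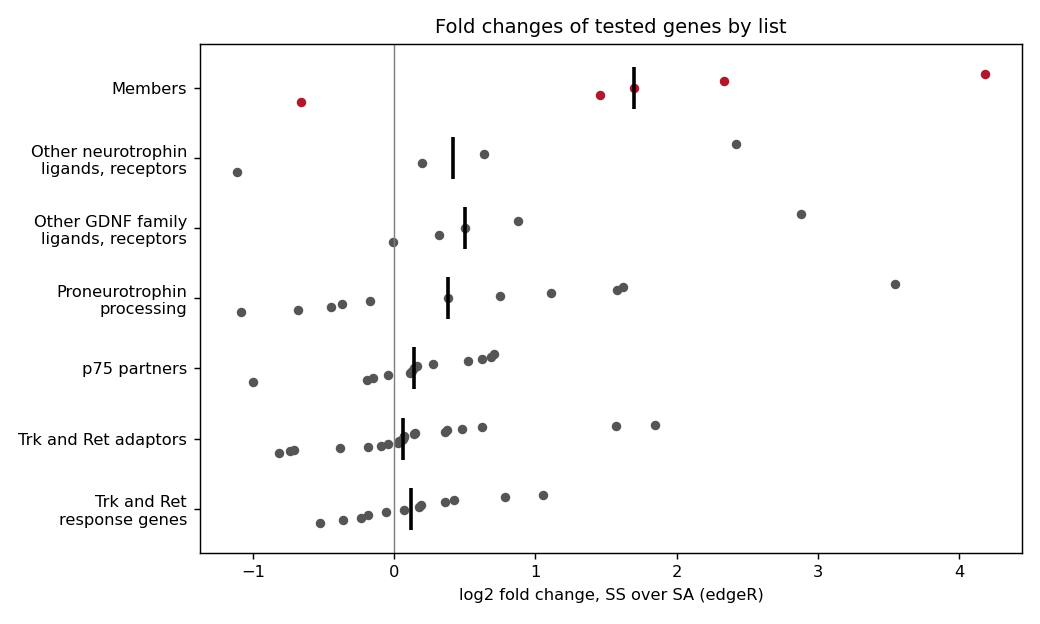
Log2 fold change of SS over SA (edgeR) for each tested gene of the members and of 6 lists of related genes, 1 dot per gene, with the list median as a vertical bar. The medians of the 6 lists run from 0.06 for the adaptors to 0.50 for the GDNF family list. That of the 5 tested members is 1.70. Members and lists were chosen with earlier results of these data known. Ngfr among the members, and Gfra4 and Serpini1 in the lists, were tested largely because of their SS values. The medians are therefore descriptions and no test of members against lists.

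By Pearson r of log2 CPM over the 8 libraries, among 10790 or 10791 genes averaging 5 CPM or more, Ntrk3 was most like Il33 (0.97), Ifit1 (0.95) and Tor1aip2 (0.95), and Ntrk2 most like Garem1 (0.98), Pxdn (0.96) and Dusp18 (0.94). Gfra1 was most like Spin1, Kdsr and Smoc1 (0.97 each), Gfra2 like Hirip3 (0.99), Glrx5 (0.96) and Blvrb (0.96), and Ngfr like Picalm (0.94), Mfsd1 (0.93) and Olfr558 (0.91). With 8 libraries that share cell content, such values describe the ranking and carry no test. Ngfr had at most 12 counts in SS replicate 2 and in each SA library, so its values rest partly on counts near 0. Under the alternatives the lowest r was 0.78, for Ntrk3 with Tor1aip2 without the 3 leukocyte-rich libraries. The lowest for Ngfr was 0.79 (Olfr558, without SS replicate 4) and for Ntrk2 0.81 (Dusp18, without SA replicate 3). Among the members themselves the highest value was 0.54, between Ntrk2 and Ntrk3.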

How the data were processed

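The deposited files are a table of raw counts by gene symbol, with 1 column per mouse for the 16 lane samples, and a second table in which each value is the raw count over 1 factor per library, not used here. Per the submitters' processing notes, the tools were featureCounts, STAR, bcl2fastq and DESeq2 (no versions) and the builds GRCm38 and mm10. The annotation and strand setting are not given there. Per the labels' protocols, a low-input kit made the libraries from total RNA. Titles number 4 mice per genotype. If these were not separate animals, p-values measure only the spread between libraries.

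Deposited counts went into the quasi-likelihood F test of edgeR 4.0.16 (R 4.3.3) with genotype as the only term, TMM scaling, robust dispersions and the filterByExpr filter. P-values were adjusted by Benjamini-Hochberg over all 17316 genes that passed, and called under 0.05. DESeq2 (1.42.0) is named where its values are given. CPM are counts over TMM-scaled totals. The SE is the log2 fold change over the root of F. Floors are 3 counts and cover counting error only. GENCODE M21 (GRCm38) gave positions and exon lengths, with 91.7% of symbols found. Scripts were tested on simulated counts.

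Named are all 8 members, up to 3 genes per related list by smallest p plus a few fixed by name (Ntf5, Ret and Sort1 among them), the first 2 genes of marker lists, and the 3 genes most like each tested member. Some of these genes are not reported here. Nrtn, Cdh19 and Foxd3 were added after their values were seen. The members and lists were chosen with earlier results of these data known. Alternatives were DESeq2, limma-voom (limma 3.58.1), other scaling and filters, the replicate number as a block, a leukocyte covariate (mean log2 CPM of the 15 pan-leukocyte genes), and libraries left out.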

Additional observations from a re-analysis of the deposited data

Results flagged for a closer look

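Among the 84 groups of 4 libraries examined (members, named genes and marker sums in each genotype), 10 held a library whose gap to its nearest neighbour was, as a share of the group's range, over Dixon's 95% critical value for 4 samples. Chance flags about 1 in 20 groups of normally distributed values. CPM and their sums need not be normal, and the groups share libraries, so that rate is only a rough guide here. That rate does not hold for Ntf3 in SS and Bdnf in SA, where 3 libraries were at 0 and any count in the fourth is flagged. Among the members, SS replicate 4 stood apart for Ngfr, with 13.5 CPM where the remaining SS libraries had 0.0724 to 2.11 CPM, and for Ntf3, at 1.32 CPM against 0. SA replicate 3 stood apart for Ntf3, at 1.27 CPM against 0 to 0.0368 CPM, and for Bdnf, at 0.1004 CPM (3 counts) against 0. SA replicate 3 was also apart for Gfra4, with 1.74 CPM, where SA replicates 1, 2 and 4 had 0 to 0.139 CPM.

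Of the other genes, Irak1 had 144 CPM in SS replicate 3 and 58.2 to 72.1 CPM in SS replicates 1, 2 and 4. Sh2b1 had 61.9 CPM in SA replicate 4 and 26.5 to 31.7 CPM in SA replicates 1 to 3. Of the marker sums, SS replicate 4 was apart for pericyte and smooth muscle genes (6600 CPM against 1317 to 1839 CPM) and for megakaryocyte and platelet genes (40.2 CPM against 10.0 to 11.9 CPM), although SA replicates 1 and 2 reached 306.5 and 399 CPM of megakaryocyte and platelet genes. SS replicate 1 was apart for endothelial genes (112 CPM against 13.7 to 27.8 CPM).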

How the results depend on the processing

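No member and no gene of the related lists was called under any of the 17 alternatives. Over all genes, DESeq2 called 315, edgeR without a low-count filter 5, and leaving out 1 library gave from 0 to 1 (1 without SS replicate 1). With the replicate block edgeR called 0 genes. Correlations of deviations ran from -0.15 to 0.22 for same-numbered mice of the 2 genotypes and from -0.28 to 0.22 for the others. These values cannot show whether mice were paired by number, so the block is only an alternative. Ngfr, Ntrk2 and Ntrk3 stayed above 0 under each alternative, from 2.37 to 5.36, from 1.83 to 3.26 and from 1.04 to 2.39 (log2). With the leukocyte covariate the sign turned for Gfra1 (-0.035), Gfra2 (0.45), Sorl1 (0.39), Ncam1 (-0.13), Mmp9 (0.084) and Maged1 (-0.11). Without the 3 leukocyte-rich libraries it turned for Gfra2 (0.41). With 1 library left out, Gfra2 lay between -1.88 (SS replicate 3 left out) and 0.58 (SA replicate 2 left out), Ret between -0.019 (SA replicate 2 left out) and 0.69, and Sort1 between -0.041 (SA replicate 4 left out) and 0.57. The cause of these turns was not tested. Counts of Bdnf did not exceed 3 and those of Gdnf did not exceed 13 in any library, which limits what can be read from them. Of the list medians, that of proneurotrophin processing lay between -0.089 and 0.69, that of p75 partners turned with the leukocyte covariate (-0.05), and that of the adaptors turned with it (-0.07) and without the 3 leukocyte-rich libraries (-0.04).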

Other observations

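Markers of other blood and connective cells not described above varied as follows. Macrophage genes summed to 141 to 850 CPM in SS and 91.1 to 601 CPM in SA, and osteoblast genes to 2615 to 9545 CPM in SS and 3425 to 15577 CPM in SA. Endothelial genes summed to 13.7 to 112 CPM in SS and 13.1 to 80.6 CPM in SA, and megakaryocyte and platelet genes to 10.0 to 40.2 CPM in SS and 7.14 to 399 CPM in SA. Skeletal muscle genes, whose tissue is a known source of neurotrophins, summed to 0.543 to 3.29 CPM in SS and 0.110 to 8.23 CPM in SA. SA replicate 3, with the highest osteoblast sum, was the SA library with 38 Ntf3 counts and the lowest Ntrk2 value.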
